A study of Mus musculus with 18 samples.

Results

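Retinoid metabolism and binding genes are described here in mouse skin during expansion by stretch, as 9 of the 32285 genes in the count matrices: Crabp1, Crabp2, Cyp26b1, Rbp4, Aldh1a1, Aldh1a2, Aldh1a3, Stra6 and Dhrs3. The 9 were taken by symbol, with results of these data already known, and each symbol named 1 gene identifier. Their differences between expanded and control skin therefore describe the choice: they are given with no p-value, and how many passed the threshold is given once, as a description. Tests were made on 59 other genes of the retinoid pathway, a list that holds none of the 9. That list was also drawn up with earlier results of these data known, so its p-values are not free of that choice.

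Vitamin A travels in blood as retinol bound to RBP4 and can enter cells through the receptor STRA6. Dehydrogenases oxidise retinol to retinal, DHRS3 works in the reverse direction by reducing retinal back to retinol, and the ALDH1A enzymes oxidise retinal to retinoic acid. Inside the cell CRABP1 and CRABP2 bind retinoic acid, CYP26 enzymes such as CYP26B1 break it down, and the receptors RAR and RXR, bound to DNA as pairs, change transcription in response to it. Retinoic acid is known in skin for its effects on keratinocyte differentiation and on the hair follicle.

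The samples came from mice that all had the same back-skin surgery, with a tunnel made under the skin. In the expanded arm a hydrogel expander was placed through the tunnel, and in the control arm no expander was placed. Skin was collected 1, 2 and 4 days after surgery, dissociated and sorted for live (DAPI-negative) cells, and the mice of an arm were pooled into 1 reaction per day and sequencing round. Each arm had 5 mRNA libraries made by a droplet method that counts molecules (unique molecular identifiers, UMIs) near the 3′ end of transcripts: 2 at day 1, 2 at day 2 and 1 at day 4. The strain, age and sex of the mice are not given in the sources used here. Because a library is a pool, p-values measure the spread between pooled libraries. All but the day 1 round 1 pair carried hashtag antibodies that mark the mouse a cell came from.

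The libraries held 17726739 to 75470722 UMIs and 2468 to 9115 barcodes, and at most 0.377% of the barcodes of the smaller library were shared between any pair. After filters, 44902 cells remained, 27975 control and 16927 expanded. Cells were clustered without the 9 genes and without the pathway list, and 35 of 39 clusters took 1 of 18 class names from marker genes, written here as fibroblast-like and so on. The other 4 clusters, with 990 cells, stayed unnamed. The cluster named smooth muscle scored on all 6 smooth muscle and all 6 pericyte markers, and at a finer resolution 902 of its 995 cells fell in a pericyte-like and 93 in a smooth muscle-like cluster; it is called smooth muscle or pericyte-like here. The 348 cells named Langerhans-like at the finer resolution were led by Ccl22, Il4i1, Zmynd15 and Ccr7, the last a marker of the dendritic list. The Langerhans-like class may therefore hold other dendritic cells. At the finer resolution 384 cells took the name sebaceous gland, led by Cidea and Elovl3, a name not among the 18. Clusters of 562 and 263 cells that scored best on basal keratinocyte markers stayed unnamed there. The basal keratinocyte-like class may therefore hold sebaceous gland-like and other keratinocyte cells. Fibroblast-like cells were the most frequent class, with 13078 control and 3747 expanded cells. Levels are given as CPM, a class's summed UMIs in a library scaled to a total of 1000000. A library entered a class with at least 20 cells, which left 11 classes with 4 or more libraries per arm for testing. UMI counts from 3′ ends are compared here within a gene, between classes or arms, and not between genes.

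Across classes the 9 genes fell into a few patterns. Crabp1, Cyp26b1 and Aldh1a1 had their highest mean in fibroblast-like cells. Crabp2 was highest in Schwann-like, suprabasal keratinocyte-like and dermal papilla-like cells. Stra6 was found mainly in the keratinocyte classes, and Dhrs3 was spread over nearly all classes. Aldh1a2 was low in all of them.

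**Figure D1:**
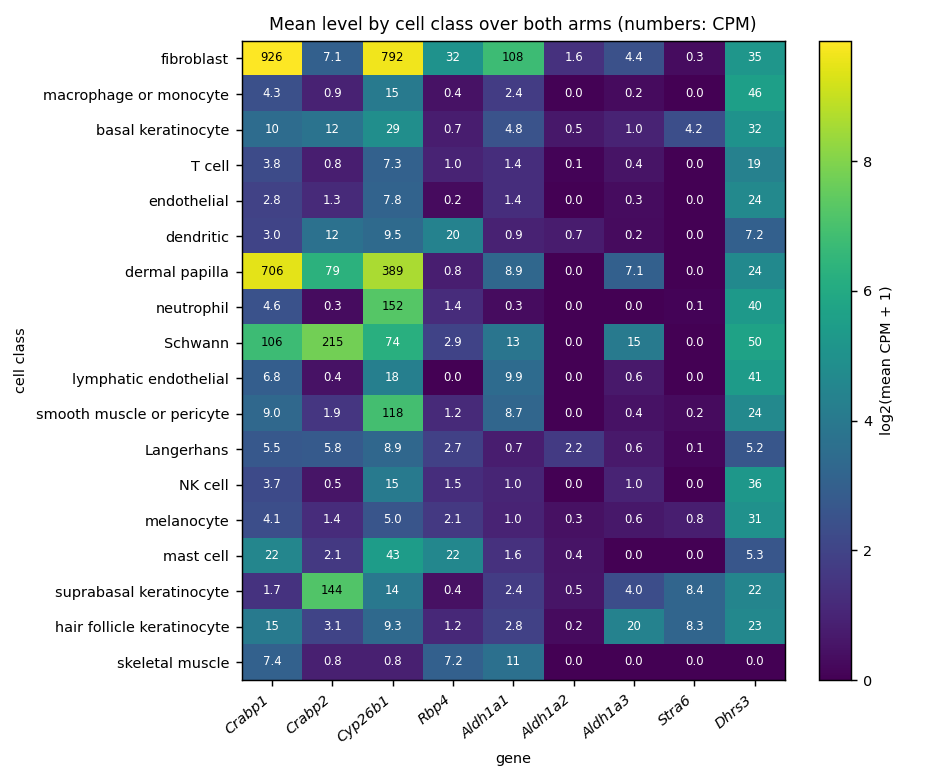
Mean level of the 9 genes (columns) in 18 cell classes (y axis), over the libraries of both arms, coloured by log2 of the mean CPM plus 1 and printed in CPM. Read down a column: Crabp1 is at 926 CPM in fibroblast-like and 706 CPM in dermal papilla-like cells, and Dhrs3 lies between 18.9 and 49.6 CPM in most classes.

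Crabp1, which encodes a cytosolic binding protein for retinoic acid, lies on the plus strand of chromosome 9 at 54764748 to 54773110 (mm10). Fibroblast-like cells held 925.6 ± 668.9 CPM (SD, n = 10 libraries) and dermal papilla-like cells 705.6 ± 449.0 CPM (SD, n = 7), a difference well within their spread. Schwann-like cells followed with 106 ± 74.8 CPM (SD, n = 9), and the other classes had means of 21.8 CPM or less. With every cell thinned to 2000 UMIs, 25.3% of fibroblast-like and 48.2% of dermal papilla-like cells had a Crabp1 UMI, against 0.526% of T cell-like cells, a class that should lack it. Without thinning the shares were 35.5%, 60.7% and 1.23%, at median depths of 10232, 4961 and 4287.5 UMIs.

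In fibroblast-like cells Crabp1 was at 132 and 468 CPM in the control libraries of day 1, 456 and 529 CPM at day 2 and 363 CPM at day 4. In the expanded libraries it was at 765 and 1058 CPM at day 1, 1765 and 1889 CPM at day 2 and 1830 CPM at day 4. Every expanded library lay above every control library, and the 3 expanded libraries of days 2 and 4 lay above the day 1 libraries. The means were 389.8 ± 155.7 and 1461 ± 514.6 CPM (SD, n = 5 each), and the fitted log2 fold change was 1.68 ± 0.28 (SE). Over 14 hashed mice per arm, control values ran from 267.5 to 1158 CPM with a median of 448 CPM, and expanded values from 828.9 to 3294 CPM with a median of 1553 CPM. The mice of the arms overlapped in range, unlike the libraries; hashtags assigned 48.2% of the fibroblast-like cells of the hashed libraries to a mouse.

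**Figure D2:**
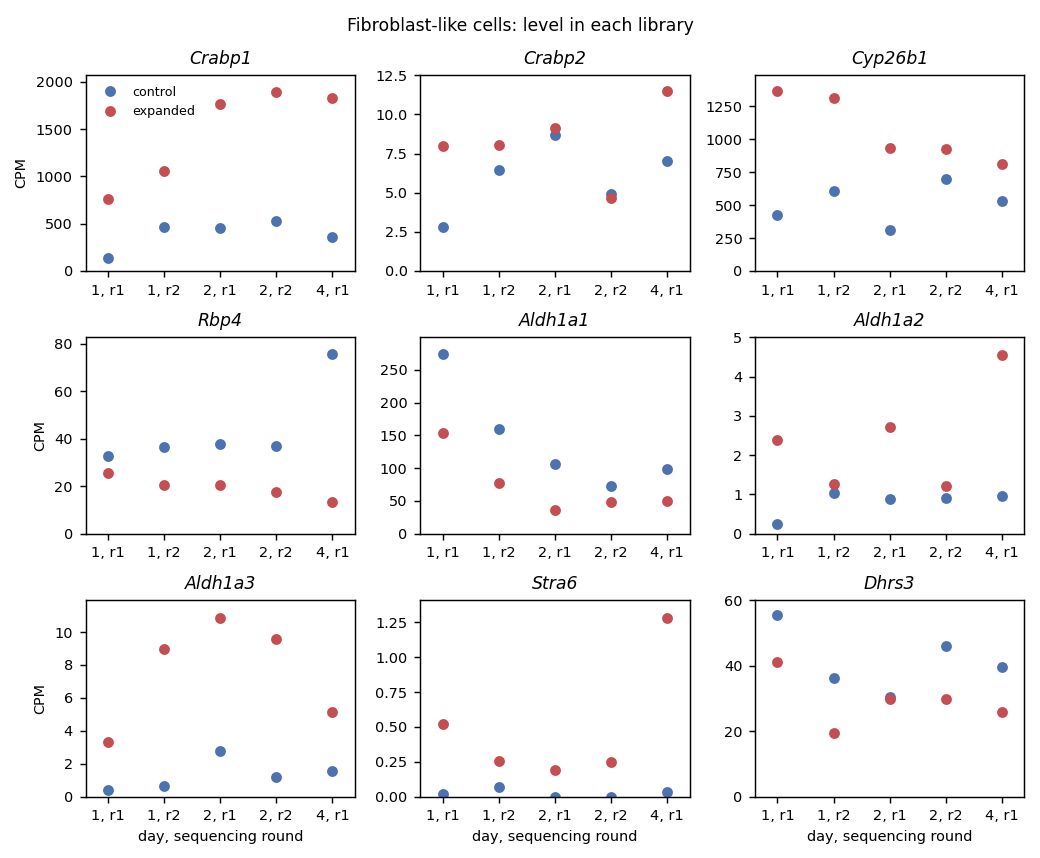
Level (y axis, CPM) of each of the 9 genes in fibroblast-like cells of the 10 libraries, by day and sequencing round (x axis), with control in blue and expanded in red. Crabp1, Cyp26b1, Aldh1a2 and Aldh1a3 are higher in the expanded library of every pair, and Rbp4, Aldh1a1 and Dhrs3 are lower in every pair.

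Dermal papilla-like cells, the signalling fibroblasts at the base of the hair follicle, showed the opposite order for Crabp1. Control libraries held 850, 1593 and 698 CPM (day 1 round 2, day 2 round 2 and day 4) and expanded libraries 292, 745, 472 and 289 CPM (day 1 round 2, both day 2 rounds and day 4). The expanded library was the lower one in 3 of 3 pairs, although the ranges overlapped, with means of 1047 ± 479.3 (n = 3) and 449.6 ± 214.7 CPM (SD, n = 4). The class's own marker genes moved with it: 8 dermal papilla markers summed to 1432 to 4391 CPM in control and 873.8 to 1340 CPM in expanded libraries, with 0 of 8 higher in expanded, and their part in the result was not tested. In Schwann-like cells Crabp1 ran from 19.0 to 131.8 CPM in control and 16.3 to 250.6 CPM in expanded libraries, higher in the expanded library of 2 of 4 pairs. The arms overlapped across most of this range, and the fitted log2 fold change was 0.19 ± 0.82 (SE), or -0.67 without the control library of day 1 round 2.

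The 250 bases before the annotated start of Crabp1, chr9:54764498-54764747 on the plus strand (RefSeq, GRCm38), are shown because of the large difference of Crabp1 between arms in fibroblast-like cells. They are 63.6% G or C and hold 5 GC boxes (GGGCGG on either strand, in capitals), which end 6 to 172 bases before the start.
Crabp1: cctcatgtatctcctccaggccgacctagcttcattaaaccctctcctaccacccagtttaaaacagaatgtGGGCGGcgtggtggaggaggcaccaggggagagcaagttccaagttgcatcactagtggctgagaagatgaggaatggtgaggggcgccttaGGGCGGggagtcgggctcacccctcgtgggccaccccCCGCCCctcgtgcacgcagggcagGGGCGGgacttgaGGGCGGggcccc
A GC box was found in 32.7% of 32851 RefSeq windows of the same length, and in 4 of the 7 genes of the 9 that have a window in that table (Crabp1, Cyp26b1, Rbp4 and Stra6). TATAAA on either strand was found in 12.4% of all windows and in those of Cyp26b1 and Rbp4. These matches are letters in a window and say nothing about binding.

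Crabp2, the binding protein known for passing retinoic acid to its nuclear receptors, lies on chromosome 3 at 87948693 to 87953372. Its mean was 214.8 ± 119.4 CPM in Schwann-like cells (SD, n = 9), 143.9 ± 72.6 CPM in suprabasal keratinocyte-like cells (n = 7) and 78.8 ± 51.4 CPM in dermal papilla-like cells (n = 7). Neighbours in this order did not differ beyond their spread. The next classes were basal keratinocyte-like cells at 12.5 ± 3.66 CPM and dendritic-like cells at 11.7 ± 13.4 CPM (SD, n = 10 each). Fibroblast-like cells had 7.12 ± 2.53 CPM (SD, n = 10).

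In suprabasal keratinocyte-like cells Crabp2 was at 88.0, 28.8, 195 and 159 CPM in the control libraries of day 1 rounds 1 and 2, day 2 round 2 and day 4, and at 152, 130 and 254 CPM in the expanded libraries of day 1 rounds 1 and 2 and day 4. The expanded library was the higher in 3 of 3 pairs, and the ranges overlapped. Marker genes moved with it in this class: basal keratinocyte markers summed to 7015 to 9864 CPM in control and 12430 to 15610 CPM in expanded libraries (5 of 7 higher), suprabasal markers to 10260 to 22050 and 7825 to 13440 CPM (2 of 8 higher), and fibroblast markers to 128.1 to 2882 and 17.1 to 132.7 CPM (1 of 8 higher). None of these markers was at 0 in all libraries, and their part in the result was not tested. In dermal papilla-like cells the control libraries held 103, 148 and 143 CPM and the expanded libraries 42.1, 53.2, 29.1 and 34.2 CPM. These groups did not overlap, and Crabp2 followed Crabp1 there in being lower in the expanded library of 3 of 3 pairs. The share of all genes without overlap was not computed for this class. In Schwann-like cells the means of the arms were 222.9 ± 126.3 (n = 4) and 208.4 ± 128.1 CPM (SD, n = 5), and in fibroblast-like cells 5.97 ± 2.23 and 8.26 ± 2.47 CPM (SD, n = 5 each), with a fitted log2 fold change of 0.33 ± 0.26 (SE). By mouse the order of the fibroblast-like means was the reverse, at 6.57 ± 4.53 CPM in control and 5.38 ± 3.40 CPM in expanded skin (SD, n = 14 mice each), with medians of 6.05 and 6.04 CPM, so no direction is given for Crabp2 there.

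**Figure D3:**
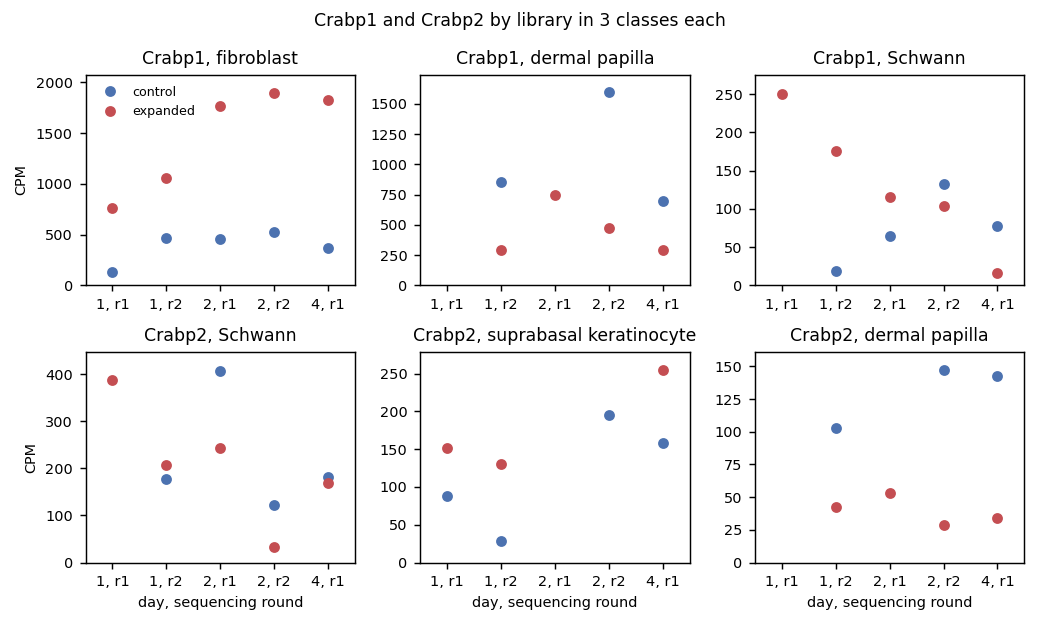
Crabp1 (top) and Crabp2 (bottom) in each library (y axis, CPM) by day and sequencing round (x axis) for 3 classes each, control in blue and expanded in red; libraries with under 20 cells of a class are left out. In dermal papilla-like cells both genes are lower in the expanded library of each of 3 pairs, whereas Crabp1 in fibroblast-like cells is higher in each of 5.

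Cyp26b1, whose product inactivates retinoic acid by hydroxylation, lies on the minus strand of chromosome 6 at 84571414 to 84593908. Fibroblast-like cells held 792.3 ± 353.9 CPM (SD, n = 10) and dermal papilla-like cells 389.2 ± 88.2 CPM (SD, n = 7). Smooth muscle or pericyte-like cells had 117.9 ± 60.8 CPM (n = 10) and Schwann-like cells 74.4 ± 51.1 CPM (SD, n = 9). With cells thinned to 2000 UMIs, 47.0% of fibroblast-like cells had a Cyp26b1 UMI, against 0.931% of T cell-like cells. Without thinning the shares were 66.6% and 2.53%.

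In fibroblast-like cells the control libraries held 422 and 608 CPM of Cyp26b1 at day 1, 307 and 703 CPM at day 2 and 529 CPM at day 4. The expanded libraries held 1368 and 1315 CPM at day 1, 935 and 923 CPM at day 2 and 812 CPM at day 4. Expanded libraries were above control libraries without overlap, and among them the day 1 libraries were the highest and day 4 the lowest. For Crabp1 the day 1 libraries were the lowest of the expanded arm, and day 4 lay between the libraries of day 2. The means were 513.8 ± 154.7 and 1071 ± 252.8 CPM (SD, n = 5 each), with a fitted log2 fold change of 0.84 ± 0.19 (SE). By mouse, control values ran from 323 to 990 CPM with a median of 637 CPM, and expanded values from 549 to 1471 CPM with a median of 957 CPM. In dermal papilla-like cells Cyp26b1 did not go with Crabp1: its means were 329 ± 30.7 (n = 3) in control and 435 ± 92.3 CPM (SD, n = 4) in expanded libraries, higher in the expanded library of 3 of 3 pairs. In smooth muscle or pericyte-like cells the means were 89.4 ± 54.3 and 146 ± 57.7 CPM, higher in 4 of 5 pairs, and in basal keratinocyte-like cells 27.3 ± 8.22 and 29.9 ± 2.07 CPM (SD, n = 5 each). Fibroblast markers in the former class summed to 553.5 to 18450 CPM in control and 313 to 17130 CPM in expanded libraries (1 of 8 higher), and their part was not tested.

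The enzymes that make retinoic acid from retinal were unequal in where they were found. Aldh1a1 (chromosome 19, 20492583 to 20643463) was at 107.9 ± 71.99 CPM in fibroblast-like cells (SD, n = 10), and its mean was 13.3 CPM or less in the other classes. Aldh1a3 (chromosome 7, 66390892 to 66427477) was at 44.2, 14.5 and 0 CPM in the 3 control libraries with enough hair follicle keratinocyte-like cells and at 15.4 ± 14.6 CPM in Schwann-like cells (SD, n = 9). Aldh1a2 (chromosome 9, 71215789 to 71296243) had 322 UMIs over all cells. Its class means were 2.21 CPM or less, resting on 225 UMIs in fibroblast-like and 17 UMIs in Langerhans-like cells.

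In fibroblast-like cells the control libraries held 274 and 160 CPM of Aldh1a1 at day 1, 106 and 73.4 CPM at day 2 and 99.1 CPM at day 4. The expanded libraries held 154 and 77.2 CPM at day 1, 36.2 and 49.0 CPM at day 2 and 49.3 CPM at day 4. Each expanded library was below the control library of its pair while the ranges of the arms overlapped, and in both arms the highest library was that of day 1 round 1. The means were 142.6 ± 79.8 and 73.2 ± 47.7 CPM (SD, n = 5 each), with a fitted log2 fold change of -1.22 ± 0.24 (SE). By mouse, the median was 109 CPM in control (51.9 to 189.7) and 54.4 CPM in expanded skin (29.0 to 150.6).

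Aldh1a3 in fibroblast-like cells was at 0.403, 0.659, 2.76, 1.16 and 1.57 CPM in the control libraries, in the order of day and round, and at 3.34, 8.99, 10.9, 9.56 and 5.12 CPM in the expanded libraries. Every expanded library exceeded every control library, at counts of 19 to 112 UMIs per library, and the fitted log2 fold change was 2.51 ± 0.39 (SE). Aldh1a2 was at 0.254, 1.04, 0.887, 0.898 and 0.953 CPM in control and 2.40, 1.26, 2.71, 1.23 and 4.55 CPM in expanded libraries, on 5 to 46 UMIs per library, with a fitted log2 fold change of 1.42 ± 0.38 (SE). The Aldh1a2 libraries of the arms did not overlap either, and its log2 fold change was 1.24 without the day 4 library of either arm. Over 14 hashed mice per arm, Aldh1a3 ran from 0 to 5.11 CPM in control skin (median 0.983). In expanded skin it ran from 0 to 152.1 CPM (median 4.796). Aldh1a2 ran from 0 to 1.728 CPM in control (median 0.1252) and 0 to 16.48 CPM in expanded skin (median 0.7488). For both genes the mice of the arms overlapped in range, unlike the libraries. In dendritic-like cells Aldh1a2 was at 1.34 ± 0.301 CPM in control libraries (SD, n = 5) and had no UMI in any of the 5 expanded libraries. Over the 7294125 UMIs of that class in the expanded arm, a count of 0 allows up to 0.411 CPM, below every control library (1.01 to 1.83 CPM). The pooled control level of 1.405 CPM, on 28 UMIs, was 3.415 times that limit, a value that leaves out the counting error of the control level. By mouse, dendritic-like cells ran from 0 to 5.13 CPM in control (median 0.789, n = 14) and were at 0 in expanded skin (n = 9). Macrophage markers in these cells summed to 6756 to 12050 CPM in control and 3549 to 7530 CPM in expanded libraries (5 of 10 higher), and their part was not tested.

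Rbp4 and Stra6, the carrier of retinol and its membrane receptor, were found in different classes. Rbp4 (chromosome 19, minus strand, 38116620 to 38125321) had 31.7 ± 17.8 CPM in fibroblast-like and 19.7 ± 17.5 CPM in dendritic-like cells (SD, n = 10 each), which did not differ beyond their spread. Stra6 (chromosome 9, 58063793 to 58154004) had 332 UMIs over all cells and was at 8.35 ± 9.67 CPM in suprabasal (n = 7), 8.34 ± 5.49 CPM in hair follicle (n = 3) and 4.21 ± 2.73 CPM in basal keratinocyte-like cells (SD, n = 10). In fibroblast-like cells Stra6 had 4 UMIs in the control libraries together and 25 UMIs in the expanded libraries, too few for the filter of the fit.

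Rbp4 in fibroblast-like cells was at 32.9 and 36.4 CPM at day 1, 37.6 and 37.1 CPM at day 2 and 75.6 CPM at day 4 in control libraries. In expanded libraries it was at 25.4 and 20.4 CPM at day 1, 20.4 and 17.7 CPM at day 2 and 13.2 CPM at day 4. The groups did not overlap, and the pair was farthest apart at day 4, where the control library stood above the others of its arm. The means were 43.9 ± 17.8 and 19.4 ± 4.45 CPM (SD, n = 5 each), with a fitted log2 fold change of -1.30 ± 0.25 (SE). By mouse the medians were 27.6 CPM (7.75 to 98.5) and 16.5 CPM (3.69 to 38.1). In dendritic-like cells the fitted value was 0.29 ± 0.60 (SE), which turned negative in 4 alternatives, down to -0.34 without the expanded library of day 1 round 1.

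Dhrs3, a short-chain reductase of retinal whose gene is known to respond to retinoic acid, lies on chromosome 4 at 144892534 to 144928209. It had class means of 18.9 to 49.6 CPM in 14 of the 18 classes and lower means in dendritic-like (7.17 ± 1.96 CPM, n = 10), mast cell-like (5.29 ± 10.6 CPM, n = 8) and Langerhans-like cells (5.18 ± 4.13 CPM, SD, n = 10). No UMI was found in the 3 control libraries with enough skeletal muscle-like cells, where a count of 0 allows up to 7.27 to 23.2 CPM. From Schwann-like cells (49.6 ± 28.5 CPM, SD, n = 9) down to T cell-like cells, no neighbours in the order differed beyond their spread.

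Among the classes fitted, Dhrs3 had its largest fitted difference between arms in endothelial-like cells. Control libraries held 37.4 and 44.1 CPM at day 1, 39.6 and 22.2 CPM at day 2 and 37.2 CPM at day 4, and expanded libraries 12.6 and 8.55, 7.22 and 11.4, and 16.6 CPM. The groups did not overlap, on 8 to 124 UMIs per library, and the fitted log2 fold change was -1.79 ± 0.23 (SE). How many of all genes lacked overlap in this class was not computed. In basal keratinocyte-like cells the arms met at their edges, with control libraries at 28.7 to 45.6 CPM and expanded libraries at 21.5 to 29.1 CPM, lower in 5 of 5 pairs, and a log2 fold change of -0.68 ± 0.11 (SE). By mouse the basal medians were 34.9 CPM (22.5 to 46.8) and 23.6 CPM (5.41 to 27.8), over 10 mice per arm.

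In fibroblast-like cells Dhrs3 was at 55.4, 36.1, 30.3, 46.1 and 39.7 CPM in control libraries and 41.2, 19.5, 29.8, 29.9 and 25.7 CPM in expanded libraries. It was lower in 5 of 5 pairs with overlapping ranges, and the log2 fold change was -0.72 ± 0.23 (SE). By mouse the medians were 34.9 CPM (25.5 to 57.3) and 22.5 CPM (14.6 to 48.3). NK cell-like cells went the other way: control libraries held 5.39 to 34.9 CPM and expanded libraries 27.6 to 68.1 CPM, higher in 5 of 5 pairs on 2 to 25 UMIs per library, with a log2 fold change of 0.89 ± 0.29 (SE). The difference between these classes was not tested.

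Of the 9 genes, 8 could be fitted in fibroblast-like cells and 7 had an adjusted p under 0.05 by edgeR's quasi-likelihood test, all but Crabp2. The same test called 32.2% of all genes fitted in that class, and 20.3% of all genes fitted had libraries that did not overlap between arms. The share without overlap was not computed for other classes. In basal keratinocyte-like cells 1 of 6 fitted genes was called (Dhrs3) against 11.3% of all genes, and in endothelial-like cells 1 of 2 (Dhrs3) against 13.2%. No member was called among 4 in dendritic-like (18.1% of all genes), 3 in macrophage or monocyte-like (22.7%), 4 in Schwann-like (0.263%), 2 in smooth muscle or pericyte-like (19.6%) and 1 each in lymphatic endothelial-like (12.8%), NK cell-like (0.745%) and T cell-like cells (0.359%). These counts are a description, because the genes were picked from this contrast. The Dhrs3 call in fibroblast-like cells held in 4 of the 10 fits that each left out 1 library, and the Aldh1a2 call was lost without the day 4 library of either arm.

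Marker genes and cluster shares within the fibroblast-like class moved with these values. The summed level of 8 fibroblast markers was 62140 to 174900 CPM in control and 24350 to 67650 CPM in expanded libraries, with 2 of 8 higher in expanded. The summed level of 8 dermal papilla markers was 38.3 to 149.4 CPM in control and 160 to 536.3 CPM in expanded libraries, with 5 of 8 higher. The 6 neutrophil markers summed to 0.634 to 3.54 CPM in control and 3.29 to 117.3 CPM in expanded libraries. None of these markers was at 0 in all libraries, and their part in the results was not tested.

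The class held 11 clusters, and the 9 genes differed among them. Crabp1 was highest in the cluster led by Fmod, Coch and Kera, at 3322 ± 392.4 CPM in control and 3745 ± 476.8 CPM in expanded libraries (SD, n = 5 each). In control libraries the cluster led by Tnfrsf11b, Tnc and Saa3 followed with 1052 ± 293.9 CPM (SD, n = 4). In expanded libraries that cluster held 1492 ± 594.2 CPM and the cluster led by Cadps and Mme 1607 ± 1150 CPM (SD, n = 5 each). In the control arm the clusters led by Mirg, by Lgi2, by Smim41 and by Cthrc1 held 3.01 to 15.4 CPM of Crabp1. Crabp2 was also highest in the Fmod cluster, at 51.5 ± 10.6 CPM in control and 30.8 ± 13.5 CPM in expanded libraries (SD, n = 5 each), lower in 5 of 5 pairs, although over the whole class it was higher in the expanded library of 4 of 5. Cyp26b1 was highest in the cluster led by Cadps, Mme and Wnt5a, at 1499 ± 349.2 CPM in control and 2174 ± 628.4 CPM in expanded libraries (SD, n = 5 each).

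Rbp4 and Aldh1a1 stood highest in other clusters. Rbp4 reached 176 ± 106.7 CPM in control libraries of the cluster led by Lgi2 and Gdf10 and was at 3.35 ± 2.55 CPM in the Fmod cluster (SD, n = 5 each). Aldh1a1 was at 257.3 ± 96.7 CPM in the cluster led by Vstm2a and Grem1, 236.1 ± 130.8 CPM in the Cadps cluster and 5.35 ± 3.37 CPM in the Fmod cluster (control, SD, n = 5 each). Aldh1a2 had most of its UMIs in the cluster led by Lrrc15, Tnn and Postn, at 9.19 ± 4.998 CPM in control and 19.7 ± 10.8 CPM in expanded libraries (SD, n = 5 each), on 84 and 79 UMIs. Over the 11 clusters, the Pearson r of log2 levels was 0.82 for Crabp1 with Cyp26b1, -0.76 for Crabp1 with Rbp4, -0.63 for Crabp1 with Aldh1a1 and -0.86 for Crabp2 with Aldh1a1. These coefficients describe clusters that share libraries.

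**Figure D4:**
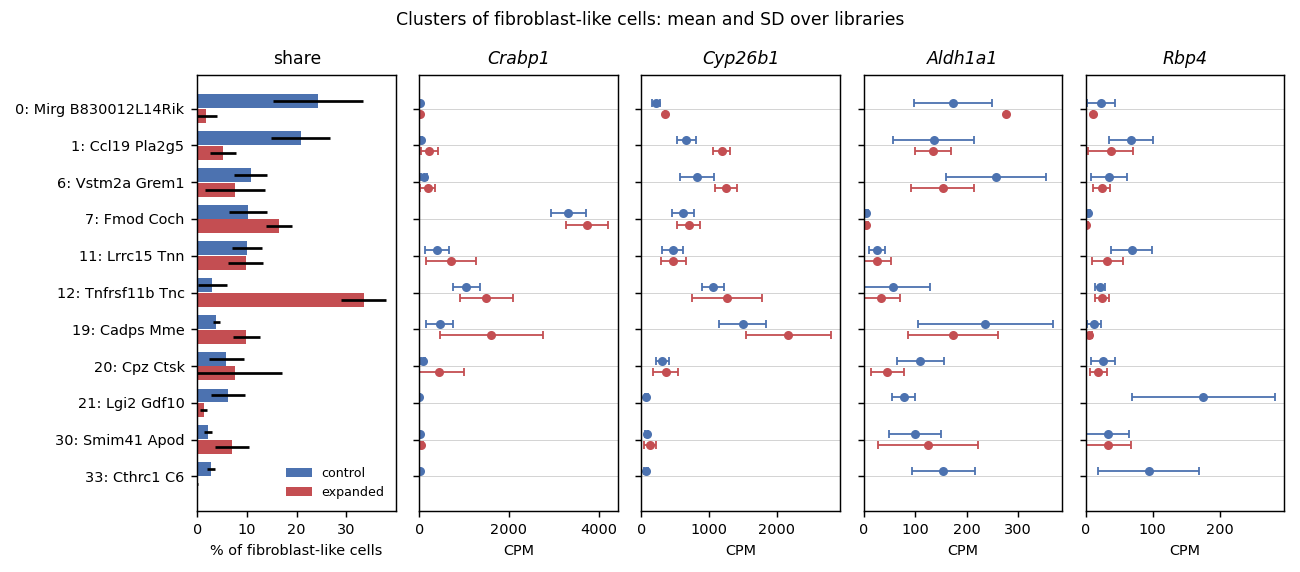
The 11 clusters of fibroblast-like cells (y axis, numbered, with leading genes): share of the class's cells (left, percent) and levels of Crabp1, Cyp26b1, Aldh1a1 and Rbp4 (x axes, CPM) as mean and SD over libraries with at least 20 cells, control in blue and expanded in red. The Tnfrsf11b cluster goes from 3.03% of control to 33.5% of expanded fibroblast-like cells, and Crabp1 is highest in the Fmod cluster in both arms.

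The shares of these clusters differed widely between arms. The Tnfrsf11b cluster made up 3.03 ± 2.94% of fibroblast-like cells in control and 33.5 ± 4.53% in expanded libraries, and the Fmod cluster 10.2 ± 3.77% and 16.4 ± 2.66% (SD, n = 5 each). The Mirg cluster, low in Crabp1, made up 24.3 ± 8.95% and 1.68 ± 2.33%, and the cluster led by Ccl19 and Pla2g5 20.8 ± 5.97% and 5.19 ± 2.61%. Cluster shares are set by genes that themselves differ between arms, so they are no count of cell types.

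Within clusters the gap between arms was smaller for Crabp1 in the Fmod cluster, higher in expanded in 3 of 5 pairs, and wide in the Cadps cluster, at 452.3 ± 309.8 and 1607 ± 1150 CPM (SD, n = 5 each) and higher in 5 of 5 pairs. It was also higher in 5 of 5 pairs in the Lrrc15 cluster and in 4 of 4 in the Ccl19 cluster. Cyp26b1 was higher in 5 of 5 pairs in the Cadps cluster and in 4 of 4 in the Ccl19 cluster, at 666 ± 147 and 1186 ± 129.9 CPM (SD, n = 5 and 4). In the Lrrc15 cluster Cyp26b1 stood at 460.6 ± 154.9 and 472.5 ± 189.9 CPM (SD, n = 5 each). Aldh1a1 was lower in 3 of 3 pairs in the Vstm2a cluster and in 4 of 4 in the Tnfrsf11b cluster, but stood at 136 ± 78.0 and 135 ± 35.5 CPM in the Ccl19 cluster (SD, n = 5 and 4). Aldh1a3 in the Tnfrsf11b cluster was at 2.09 ± 3.82 and 13.7 ± 4.59 CPM (SD, n = 4 and 5), higher in 4 of 4 pairs. Dhrs3 was lower in 5 of 5 pairs in the Lrrc15 cluster and higher in 5 of 5 in the Cadps cluster.

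In single fibroblast-like cells thinned to 2000 UMIs, 18.3% of 12437 control and 49.3% of 3589 expanded cells had a Crabp1 UMI, after 641 and 158 shallower cells were left out. An Aldh1a1 UMI was found in 8.55% of control cells with Crabp1 and 24.1% of those without it, and in 5.37% and 15.7% of expanded cells. The share was lower in cells with Crabp1 in 5 of 5 libraries of each arm. Rbp4 showed the same order, at 2.15% and 6.81% in control cells, lower in 5 of 5 libraries. Cyp26b1 showed the reverse, at 61.4% of control cells with Crabp1 and 39.5% without it, higher in 5 of 5 libraries.

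Genes whose mean level over the 18 classes followed each of the 9 most closely were sought among 12850 genes, by Pearson r of log2(mean CPM + 1). For Crabp1 they were Mkx, Scara5 and Syt13 (r of 0.946 to 0.933), for Cyp26b1 Ptgfr, Cdh11 and Twist2 (0.901 to 0.891) and for Aldh1a1 Serpina3c, Ccn4 and Vstm2a (0.936 to 0.914). For Crabp2 they were Cdsn, Dab1 and Trpm3 (0.860 to 0.811) and for Aldh1a3 Wasf1, Wnt6 and Sorcs2 (0.911 to 0.819). Stra6 followed Esrp1 (0.985) and, as the third in order, Usp43 (0.981). Dhrs3 followed Cdadc1, Prkag1 and B3gnt2 (0.857 to 0.811), Rbp4 followed Il1rl1, Bdh2 and Ogn (0.718 to 0.680), and Aldh1a2 followed Strip2, Bcl2l14 and Fcmr (0.744 to 0.722). Each value is over 18 classes that share libraries and is a description.

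Among the 59 other pathway genes, 34 passed the filter in fibroblast-like cells and 15 were called between the arms by edgeR's quasi-likelihood test, 8 higher and 7 lower in expanded skin, where 32.2% of all genes were called. Their median log2 fold change was 0.04, against 0.02 over all genes fitted. Cluster shares within the class differed between arms, as given above for the Mirg (24.3% and 1.68%) and Tnfrsf11b clusters (3.03% and 33.5%). Levels of the pathway genes within these clusters are not given, and the part of the shares in their rises and falls was not tested. Scaled by library totals without the trimmed-mean (TMM) step, an alternative chosen after seeing the data, the median of all genes shifted by 0.21, the split of the pathway became 10 higher and 5 lower, and genes called higher went from 48.9% to 75.3% of all calls. With cells thinned to 2000 UMIs 9 pathway genes were called, and the calls of Adh1, Adh5, Rdh5, Rara, Rarg, Rarres1 and Rai14 were lost. With hashed mice as units those of Lpl, Nrip1 and Rarres1 were lost.

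Of 10 fitted oxidoreductases of retinol and retinal, 3 rose and 3 fell in fibroblast-like cells. Rdh10, the main retinol dehydrogenase of the embryo, rose from 20.1 ± 4.57 to 62.0 ± 17.2 CPM (SD, n = 5 each), higher in 5 of 5 pairs, with a log2 fold change of 1.42 ± 0.18 (SE) and an adjusted p of 0.000469 by edgeR. Adh5 rose by 0.53 ± 0.13 (SE, log2). Adh1, an alcohol dehydrogenase that oxidises retinol, fell by 1.05 ± 0.27, Adh7 by 0.59 ± 0.14 and Rdh5 by 0.78 ± 0.22 (SE, log2). Dhrs4 rose by 0.46 ± 0.14 (SE, log2). The call of Rdh5 was lost without the control library of day 1 round 1 or the day 4 library of either arm, and that of Dhrs4 without these or the expanded library of day 2 round 1, with log2 fold changes of -1.03 to -0.66 for Rdh5 and 0.35 to 0.59 for Dhrs4 over the 10 fits that left out 1 library.

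**Figure D5:**
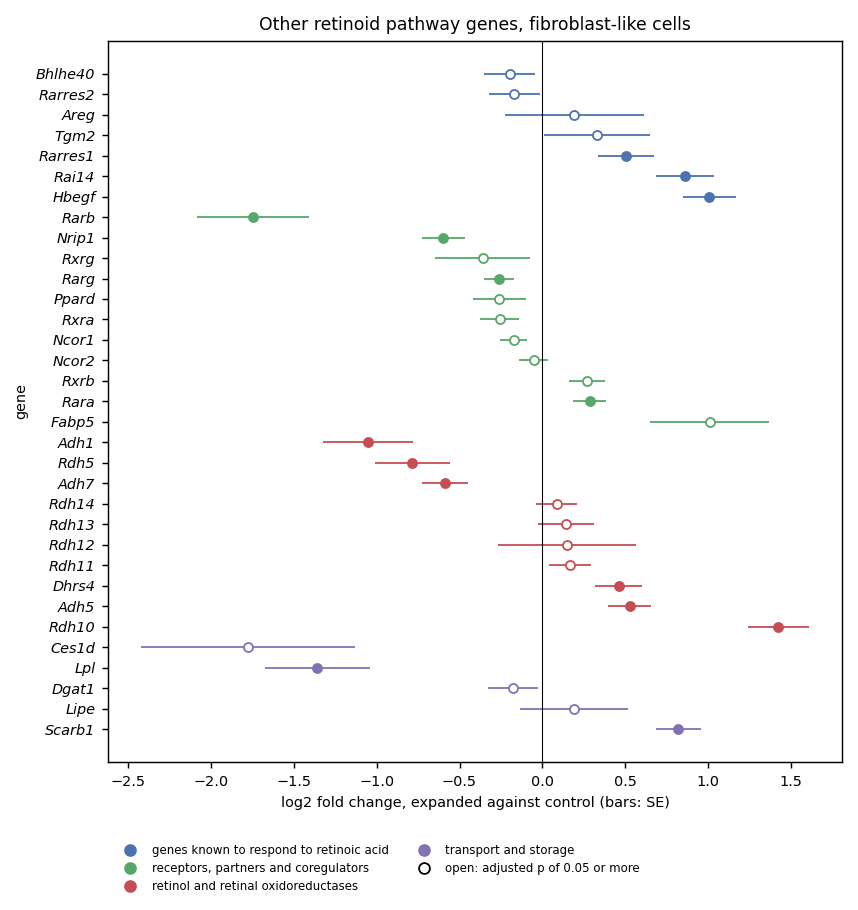
Log2 fold change, expanded against control, of 33 of the 34 other retinoid pathway genes fitted in fibroblast-like cells (x axis), grouped by role. Bars are 1 SE, derived from the F statistic of edgeR's fit over 10 libraries. Filled points have an adjusted p under 0.05 by edgeR. Rdh10 is the highest of the called genes at 1.42 and Rarb the lowest at -1.75.

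Among receptors, partners and coregulators, 4 of 11 were called in fibroblast-like cells, 1 higher and 3 lower. Rarb, the retinoic acid receptor whose own gene is a known target of retinoic acid, fell from 4.47 ± 1.10 to 1.56 ± 0.927 CPM (SD, n = 5 each), lower in 5 of 5 pairs, with a log2 fold change of -1.75 ± 0.34 (SE) and an adjusted p of 0.00295 by edgeR. It was called in all 10 fits that left out 1 library. Nrip1, a corepressor of nuclear receptors, fell by 0.60 ± 0.13 (SE, log2). Rara rose by 0.29 ± 0.10 and Rarg fell by 0.26 ± 0.09 (SE, log2), and each was called in 2 of the 10 fits that left out 1 library; with library totals the Rarg value was -0.05 and was not called. Rxra (-0.26 ± 0.12), Rxrb (0.27 ± 0.11) and Rxrg (-0.36 ± 0.29, SE) had adjusted p of 0.120, 0.0784 and 0.367 by edgeR; with library totals Rxrb was called, at 0.48.

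The Rarb window of the RefSeq table is shown as a short element because it holds a known type of retinoic acid response element, a direct repeat of half-sites with 5 bases between them. It lies at chr14:16575513-16575529 on the minus strand (GRCm38), inside annotated Rarb exons and 36 bases before the start of the table's entry. Half-sites are in capitals.
Rarb: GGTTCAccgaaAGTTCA
Half-sites were searched on either strand as AGGTCA, with AGTTCA as another accepted spelling, likewise GGGTCA and also the spelling GGTTCA. Such a repeat was found in 0.0883% of the 32851 windows of 250 bases. Of 42 pathway genes with a window, Rarb and Cyp26a1 held one, and none of the 7 member genes did. Repeats with 2 bases between half-sites were found in 0.174% of windows and with 1 base in 0.164%, and none of the 7 held either. No match says only that these letters are not in these windows.

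In fibroblast-like cells, where 32.2% of all genes were called, 3 of 7 fitted genes listed as responding to retinoic acid were called, all higher. They were Hbegf, a growth factor of the EGF family (1.01 ± 0.16), Rai14 (0.86 ± 0.18) and Rarres1 (0.51 ± 0.17, SE, log2), with adjusted p of 0.000991, 0.00407 and 0.0398 by edgeR. Rarres1 was called in 4 of the 10 fits that left out 1 library. Rarb and Dhrs3, also known to respond to retinoic acid but counted in other groups, were lower in expanded skin, as given above. Of 6 fitted genes of transport and storage, Scarb1, a lipoprotein receptor, rose by 0.82 ± 0.14, and Lpl, the lipase of circulating triglycerides, fell by 1.36 ± 0.32 (SE, log2). The 3 genes of retinoic acid breakdown were not fitted: Cyp26a1 was at 0.249 and 0.343 CPM in control and expanded libraries, and Cyp26c1 and Cyp2s1 were at 0.379 CPM or less.

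In basal keratinocyte-like cells 7 of 36 fitted pathway genes were called, 2 higher and 5 lower (11.3% of all genes). The class may hold sebaceous gland-like cells, as given above, and their part was not tested. Rbp2, a cellular retinol-binding protein, rose from 3.21 ± 3.31 to 20.6 ± 5.72 CPM (SD, n = 5 each), by 2.42 ± 0.41 (SE, log2; adjusted p of 0.0100 by edgeR). Rarres2, which encodes chemerin, fell by 2.15 ± 0.35 (adjusted p of 0.00700 by edgeR), and Adh5 rose by 0.47 ± 0.10. Ces1d fell by 2.19 ± 0.49, Nrip1 by 1.14 ± 0.27, Lpl by 0.96 ± 0.24 and Sdr16c5 by 0.76 ± 0.21 (SE, log2). The count was 3 without either expanded library of day 1, and 4 without the control library of day 1 round 1 or the expanded library of day 2 round 2. Nrip1 and Sdr16c5 were each called in 2 of the 10 fits that left out 1 library and Lpl in 6, and the call of Sdr16c5 was lost when libraries were blocked by pair, a pair being both arms at the same day and round. Fibroblast markers in this class summed to 402.4 to 4130 CPM in control and 17.6 to 396.6 CPM in expanded libraries (0 of 8 higher, none at 0 in all libraries), and their part in the falls was not tested.

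In endothelial-like cells 5 of 27 were called, 4 of them lower (13.2% of all genes), and 9 when blocked by pair. Lpl fell from 16.6 ± 9.18 to 1.35 ± 1.43 CPM, by 3.87 ± 0.52 (SE, log2; SD of the levels over n = 5 libraries each). Its adjusted p was 0.000655 by edgeR, and it was called in all 10 fits that left out 1 library. Rarres2 fell by 1.62 ± 0.37 and Nrip1 by 0.81 ± 0.18 (SE, log2). Bhlhe40 fell by 0.49 ± 0.14 (SE, log2) and was called in 5 of the 10 fits that left out 1 library. The calls of Nrip1 and Bhlhe40 were lost with cells thinned to 2000 UMIs and with hashed mice as units. Fibroblast markers summed to 1031 to 1545 CPM in control and 25.6 to 1445 CPM in expanded libraries (0 of 8 higher, none at 0 in all libraries), while endothelial markers summed to 5073 to 5429 and 4928 to 5422 CPM; the part of the former in the falls was not tested.

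In macrophage or monocyte-like cells 7 of 27 were called, 5 higher and 2 lower (22.7% of all genes). Fabp5, which can carry retinoic acid to PPARD, rose from 782 ± 588 to 4597 ± 1722 CPM (SD, n = 5 each), by 2.52 ± 0.41 (SE, log2; adjusted p of 0.00478 by edgeR), and Hbegf fell by 2.35 ± 0.42. Bhlhe40 rose by 1.62 ± 0.49, Rdh11 by 0.85 ± 0.22, Tgm2 by 0.85 ± 0.27 and Adh5 by 0.55 ± 0.14, and Nrip1 fell by 0.54 ± 0.15 (SE, log2). The count was 3 without the day 4 library of either arm and 4 without the round 1 library of day 2 of either arm or the expanded library of day 2 round 2, and the call of Bhlhe40 was lost when blocked by pair. Bhlhe40 and Nrip1 were each called in 4 of the 10 fits that left out 1 library and Tgm2 in 3. Neutrophil markers summed to 51.2 to 129.5 CPM in control and 372.7 to 1785 CPM in expanded libraries of this class (3 of 6 higher, none at 0 in all libraries), and the class's own markers to 13850 to 20020 and 7732 to 16480 CPM (3 of 10 higher); their part was not tested.

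Different clusters held most of this class in each arm. The cluster led by Ccl8 and Cd209f made up 56.8 ± 26.8% of it in control and 11.3 ± 17.95% in expanded libraries, the cluster led by Chil3 and Fcgr1 4.33 ± 3.50% and 55.45 ± 17.05%, and the cluster led by Trem2 and Pf4 38.9 ± 23.6% and 33.3 ± 9.22% (SD, n = 5 each). Within the Trem2 cluster Fabp5 stood at 1034 ± 647 and 6022 ± 3380 CPM and Bhlhe40 at 176.3 ± 69.9 and 336.1 ± 101.5 CPM, each higher in 5 of 5 pairs, and Hbegf at 141.8 ± 41.2 and 77.1 ± 25.5 CPM, lower in 5 of 5 (SD, n = 5 each). In each of the other clusters Fabp5 was higher and Hbegf lower in 2 of 2 pairs, while Bhlhe40 was lower in 2 of 2 in the Chil3 cluster. Tgm2 and Rdh11 did not keep one order there: Tgm2 was lower in the expanded library of 3 of 5 pairs in the Trem2 cluster, and Rdh11 higher in 3 of 5.

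Fabp5 also rose in dendritic-like cells, by 1.73 ± 0.36, with Rai14 (0.92 ± 0.25) and Bhlhe40 (0.71 ± 0.18, SE, log2), as 3 of 22 fitted genes called (18.1% of all genes). Rai14 was called in 4 of the 10 fits that left out 1 library. Besides the macrophage markers given above, fibroblast markers in dendritic-like cells summed to 299 to 1747 CPM in control and 62.4 to 308 CPM in expanded libraries (1 of 8 higher), and their part was not tested. In smooth muscle or pericyte-like cells 2 of 21 were called (19.6%): Rdh10 rose from 19.9 ± 7.32 to 135.5 ± 81.6 CPM (SD, n = 5 each), by 2.51 ± 0.49 (SE, log2; adjusted p of 0.0104 by edgeR), and Lpl fell by 0.77 ± 0.20. Among the 902 cells of the pericyte-like cluster at the finer resolution, Rdh10 was at 18.1 ± 8.98 and 141.2 ± 83.45 CPM (SD, n = 5 each), higher in 5 of 5 pairs, and Lpl at 143.1 ± 18.2 and 99.5 ± 52.3 CPM, higher in 2 of 5. Endothelial markers in the class summed to 11.1 to 199.8 CPM in control and 52.2 to 443.8 CPM in expanded libraries (7 of 7 higher), and their part was not tested. The count there was 4 without the expanded library of day 1 round 1 and 1 without that of day 2 round 2. In lymphatic endothelial-like cells 2 of 14 were called (12.8%): Rdh10 rose by 1.53 ± 0.40 and Bhlhe40 fell by 0.78 ± 0.17 (SE, log2). Fibroblast markers there summed to 327.9 to 6805 CPM in control and 96.6 to 4599 CPM in expanded libraries (2 of 8 higher), and the 6 lymphatic markers to 9650 to 23210 and 8630 to 19580 CPM; their part was not tested. Only Bhlhe40 was called there without the control libraries of day 2 round 2 or day 4 or the expanded library of day 4.

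In NK cell-like cells Areg, a growth factor of the EGF family, was the 1 gene of 11 called (0.745% of all genes). It fell from 595.7 ± 159.9 to 254.2 ± 106.0 CPM (SD, n = 5 each), by 1.33 ± 0.26 (SE, log2; adjusted p of 0.0449 by edgeR), in 5 of 5 pairs. This cluster, led by Gzmc, Xcl1 and Ncr1, also held T cell markers, which summed to 1381 to 2526 CPM in control and 1627 to 2221 CPM in expanded libraries (6 of 8 higher), with NK cell markers at 277.8 to 701.1 and 235.6 to 1695 CPM. No gene was called when blocked by pair or in 6 of the 10 fits that left out 1 library: both libraries of round 2 of the control arm, and all expanded libraries but that of day 2 round 1. No pathway gene was called by edgeR in Langerhans-like (0 of 14; 5.84% of all genes), Schwann-like (0 of 19) and T cell-like cells (0 of 16), where 6, 1 and 2 had an unadjusted p under 0.05 and DESeq2 called 1, 0 and 0. In Langerhans-like cells 4 were called without the expanded library of day 1 round 1. Among T cell-like cells 1 was called when blocked by pair, and 1 without the control library of day 2 round 1 or either expanded library of day 1.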

How the data were processed

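Single-cell 3′ mRNA libraries of dissociated mouse skin (10 libraries, 10x Genomics v3.1 chemistry per the labels' protocols) were analysed as the count matrices the authors deposited: raw UMI counts per gene and barcode, made with Cell Ranger 6.1.2 against mm10 per the submitters' processing notes. The mRNA library of the control arm at day 1 round 2 was taken from its library type, because its title reads as a hashing sample. The 8 hashing samples gave antibody names only; hashtag counts stood in the same matrices. The 9 genes, the pathway list and the marker lists were chosen with earlier results of these data known.

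Barcodes below 200 genes or 500 UMIs, or above 10% mitochondrial UMIs, were dropped. Doublets were removed by score (scanpy 1.11.5, Scrublet, 0.8% per 1000 cells) and by hashtags (1.97 to 7.04% of cells per library). Cells were clustered on 1979 variable genes (30 components, 15 neighbours, Leiden resolution 1, leidenalg 0.10.2). Clusters were named where at least 3 markers and 40% of a class's list had a UMI in 10% of cells and a level at least 2-fold over the median cluster. Median depth per kept cell was 6440.5 to 12847.5 UMIs, and in some classes it was higher in the expanded arm. Library medians did not overlap in endothelial-like (control 3630.5 to 7227, expanded 8707.5 to 12084) and basal keratinocyte-like cells (7557 to 10303, 10463.5 to 17719.5). The same held in smooth muscle or pericyte-like (4447.5 to 6041, 7136 to 13731.5) and Schwann-like cells. In fibroblast-like cells they overlapped. Beyond the fit on thinned cells, the part of depth was not tested. Counts were summed per class and library, and expanded was tested against control with edgeR 4.0.16 (R 4.3.3) by the quasi-likelihood test with TMM scaling, filterByExpr, day as covariate and Benjamini-Hochberg adjustment over all genes fitted, at 0.05. Fold changes of the 9 genes come from the same fit. That fit gives no SE for a fold change. Each SE printed is the absolute log2 fold change divided by the square root of the test's F statistic. CPM carry no TMM factor. Named pathway genes were all those called in a class (with more than 12, the 12 with the largest change) and the receptors. A few genes that this rule or the search for like patterns names are not reported here.

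The sequencing round in the labels pairs libraries across arms; differences between rounds correlated across genes between arms by 0.374 (day 1) and 0.162 (day 2) in fibroblast-like cells and by 0.0203 to 0.374 over the classes. A fit with that pair as a block, DESeq2 1.42.0, no count filter, thinned cells, resolution 2, at least 50 cells, hashed mice as units and leaving out each library were run as alternatives; library totals without TMM were added after seeing the data. A mouse was assigned where 1 hashtag had at least 10 counts and 3 times the next. On counts simulated for the 13082 genes of fibroblast-like cells, with 200 genes changed, 71% of changes of 1 and 93% of changes of 2 (log2) were recovered and 0.0776% of unchanged genes were called; for basal keratinocyte-like cells (10936 genes) these were 78%, 89% and 0.112%. The simulation had as many rises as falls, no day effect and no shift of cluster shares. In the real fibroblast-like data 32.2% of genes were called, so the simulated shares are not the error rate of the reported calls. A count of 0 allows up to 3 UMIs, per library or, where so stated, over an arm. Promoter windows are from a RefSeq table for GRCm38; Crabp2 and Aldh1a3 were not matched in it.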

Additional observations from a re-analysis of the deposited data

Results flagged for a closer look

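Libraries that stood apart from the other 4 of their arm were sought for the 9 genes in 54 arms of a class or of all cells. Of these, 5 were found. Some libraries stand apart by chance in such a search, and whether these do was not tested. Rbp4 in fibroblast-like cells was at 75.6 CPM in the control library of day 4, against 32.9 to 37.6 CPM in the other 4 control libraries, on 2457 UMIs in 3073 cells. Aldh1a1 over all cells was at 72.2 CPM in the expanded library of day 1 round 1, against 9.95 to 20.2 CPM in the others. That library also had the largest share of fibroblast-like cells in its arm. They were 1134 of 2884 cells, against 486 of 3303 in the expanded library of day 4. Within fibroblast-like cells Aldh1a1 was at 154 CPM there, against 36.2 to 77.2 CPM in the other expanded libraries. The part of the share was not tested. Dhrs3 in macrophage or monocyte-like cells was at 78.1 CPM in that same library, against 19.6 to 35.1 CPM in the others, on 137 UMIs in 136 cells. The cluster led by Ccl8 and Cd209f, which held 121 expanded cells, made up 0.351 to 42.65% of this class in expanded libraries. It made up 17.3 to 81.4% in control libraries. The highest expanded share belongs to the library with 136 cells, because in any larger one it would exceed 121 cells. The part of this share in the Dhrs3 level was not tested.

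The remaining pair rest on few cells. Cyp26b1 in neutrophil-like cells was at 1128 CPM in the expanded library of day 1 round 1, on 110 UMIs in 20 cells, against 2.77 to 15.2 CPM in the other expanded libraries. Rbp4 in mast cell-like cells was at 175.1 CPM in the control library of day 4, on 13 UMIs in 45 cells, against 0 to 4.12 CPM in the other control libraries.

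Cyp26b1 in basal keratinocyte-like cells moved in opposite directions at days 1 and 2. The mean log2 ratio of expanded to control, each with 1 CPM added, was -0.143 at day 1 and 0.726 at day 2, a difference of 0.869, with both pairs of a day on the same side. This difference was not tested.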

How the results depend on the processing

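No fold change that was called changed sign in any alternative fitted. Of 529 values for the 9 genes 28 did, over 9 pairs of gene and class that were not called (10 values in Schwann-like, 9 in basal keratinocyte-like, 5 in dendritic-like and 4 in macrophage or monocyte-like cells). Crabp2 in fibroblast-like cells could not be fitted with hashed mice as units, where its mean levels had the reverse order. Of the values of single genes, 527 for the 9 genes moved by less than 1 SD and 2 by more, while 642 for named pathway genes stayed on their side of the threshold, 134 were no longer called and 5 became called. In fibroblast-like cells the log2 fold changes over 17 to 19 fits ran from 1.51 to 2.04 for Crabp1, 0.54 to 1.03 for Cyp26b1, -1.43 to -0.97 for Rbp4, -1.40 to -0.99 for Aldh1a1, 2.14 to 2.79 for Aldh1a3, 1.18 to 1.78 for Aldh1a2, 0.14 to 0.53 for Crabp2 and -0.87 to -0.50 for Dhrs3.

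Counts of called pathway genes that moved by more than 1.5 times are given by setting. The cause was not tested except that fewer UMIs enter a thinned fit and more genes an unfiltered one. Thinning also brings the cells of both arms to the same depth, which differed between arms in some classes. With cells thinned to 2000 UMIs they were 9 in fibroblast-like (15 in the fit reported), 3 in basal keratinocyte-like (7), 1 in endothelial-like (5), 3 in macrophage or monocyte-like (7), 1 in lymphatic endothelial-like (2) and 0 in smooth muscle or pericyte-like cells (2). With no count filter they were 15 in basal keratinocyte-like, 6 in dendritic-like (3), 12 in endothelial-like, 7 in Langerhans-like (0), 4 in lymphatic endothelial-like, 1 in Schwann-like (0) and 2 in T cell-like cells (0). DESeq2 called 9 in endothelial-like and 1 in Langerhans-like cells. With the replicate block, the day-and-round pair, 9 were called in endothelial-like, 0 in NK cell-like (1) and 1 in T cell-like cells; besides these and the losses named for Sdr16c5 and Bhlhe40, the block left the counts of the other classes within 1.5 times. Library totals gave 0 in NK cell-like cells. Hashed mice gave 8 in dendritic-like, 3 in endothelial-like and 1 in T cell-like cells.

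Over all genes, 2408 were called in fibroblast-like cells when thinned (4216 in the fit reported), 315 in endothelial-like cells when thinned (1232), and in basal keratinocyte-like cells 268 when thinned, 2103 with no filter and 1988 at resolution 2 (1238). Leaving out 1 library at a time gave 3177 to 4262 calls in fibroblast-like, 679 to 1257 in endothelial-like (lowest without control day 4) and 463 to 1385 in basal keratinocyte-like cells (lowest without expanded day 4). For the pathway list it gave 10 to 16 in fibroblast-like, 3 to 8 in basal keratinocyte-like, 2 to 4 in dendritic-like, 4 to 6 in endothelial-like, 0 to 4 in Langerhans-like, 1 to 3 in lymphatic endothelial-like, 3 to 8 in macrophage or monocyte-like, 0 to 1 in NK cell-like, 1 to 4 in smooth muscle or pericyte-like and 0 to 1 in T cell-like cells, and 0 in each fit of Schwann-like cells. Not run were resolution 2 for Langerhans-like and smooth muscle or pericyte-like cells, 50 cells for NK cell-like and Schwann-like cells, and hashed mice for Langerhans-like, lymphatic endothelial-like, NK cell-like, Schwann-like and smooth muscle or pericyte-like cells, for which fewer than 4 units per arm remained. Depth limits Aldh1a2, Aldh1a3 and Stra6 most, whose libraries often held under 50 UMIs per class.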
